A study of Mus musculus with 6 samples.

Results

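The 7 genes of the NMDA receptor subunits, Grin1, Grin2a, Grin2b, Grin2c, Grin2d, Grin3a and Grin3b, were chosen by name from the 49568 genes listed in each sample. All 6 samples came from postnatal day 2 Dbx1CreERT2; Rosa26tdTomato mice of both sexes, whose mothers received tamoxifen during gestation. In these mice the fluorescent protein tdTomato marks cells whose progenitors expressed the transcription factor Dbx1 and had recombined after tamoxifen, so a cell of that lineage that escaped recombination is counted as unlabelled. Neurons were drawn by micropipette from slices of the preBötzinger complex (preBötC), the brainstem site that generates the inspiratory rhythm. The 3 Dbx1 samples held tdTomato-positive neurons and the 3 non-Dbx1 samples held neuronal somata without tdTomato, with 15 neurons per sample and a different mouse for each.

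NMDA receptors are glutamate-gated cation channels made of 4 subunits, which pass calcium and are blocked by extracellular magnesium until the membrane depolarises. Grin1 encodes the obligatory GluN1 subunit, which binds the co-agonist glycine or D-serine, and Grin2a to Grin2d encode the GluN2 subunits, which bind glutamate and set the kinetics and magnesium block of the channel. Grin3a and Grin3b encode GluN3 subunits, which bind glycine and, when they join the receptor, lower its calcium permeability and magnesium block. In the developing brainstem GluN2B and GluN2D are the typical early GluN2 subunits, while GluN2A and GluN2C generally increase after birth.

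The expression unit was RPKM, reads on a gene scaled by its exon length and by all reads on genes, and libraries held from 6464675 to 9432958 reads on genes. The 6 neuronal markers examined (Snap25, Syn1, Tubb3, Eno2, Rbfox3 and Elavl4) were above 1 RPKM in every sample and summed to between 1001 and 1730 RPKM. Slc17a6, the vesicular transporter of glutamatergic neurons, measured 47.2, 128 and 54.9 RPKM in Dbx1 samples 1 to 3 and 31.9, 35.1 and 13.6 RPKM in non-Dbx1 samples 1 to 3. The 4 markers of inhibitory neurons (Slc32a1, Slc6a5, Gad1 and Gad2) summed to 110.9, 45.7 and 142.9 RPKM in the Dbx1 samples. Their sums were 138.5, 97.7 and 142.6 RPKM in the non-Dbx1 samples, so the groups overlapped. Non-Dbx1 sample 1 stood apart, with 431 RPKM summed over 7 markers of the oligodendrocyte lineage against 19.7 to 68.3 RPKM in the other samples. The same sample had 14058 RPKM over 5 red blood cell genes, against 90.3 to 1198 RPKM in the others. Non-Dbx1 sample 2 had 69.4 RPKM over 5 endothelium and pericyte markers, nearly all of it Cldn5 (63.7 RPKM), against 0.0627 to 3.11 RPKM in the other samples. Values with a sample left out are given for the differences of the members and of the partners with the largest L2FC.

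The family was represented in every sample, but not by every gene. Grin1, Grin2a, Grin2b, Grin2d and Grin3a were found in all 6 samples, Grin2c in 4 samples, and Grin3b reached 3 reads in 1 sample. Together the 7 genes took between 0.0415% and 0.0769% of the reads on genes. Their summed level was 23.1, 38.8 and 38.0 RPKM in the Dbx1 samples, against 45.2, 30.0 and 27.0 RPKM in the non-Dbx1 samples, so the groups overlapped. These are sums over 15 neurons, in which fewer expressing cells and less RNA per cell cannot be told apart.

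The sequence just upstream of the start is shown for 3 members that differed in how regularly they were found: Grin1, detected throughout, Grin2c, detected in some samples, and Grin3b, close to its floor. The RefSeq promoter table (GRCm38.p6) held 4 of the 7 genes, these and Grin2d, and had no entry for Grin2a, Grin2b or Grin3a. The stretches are the 250 bases before the RefSeq start, written 5′ to 3′ on the strand of the gene. They lie at chr2:25319188-25319437 on the minus strand for Grin1, at chr11:115267244-115267493 on the minus strand for Grin2c, and at chr10:79970474-79970723 on the plus strand for Grin3b. Capitals mark the GC box, the hexamer GGGCGG or its reverse complement CCGCCC, which is a binding sequence of Sp-family factors.
Grin1: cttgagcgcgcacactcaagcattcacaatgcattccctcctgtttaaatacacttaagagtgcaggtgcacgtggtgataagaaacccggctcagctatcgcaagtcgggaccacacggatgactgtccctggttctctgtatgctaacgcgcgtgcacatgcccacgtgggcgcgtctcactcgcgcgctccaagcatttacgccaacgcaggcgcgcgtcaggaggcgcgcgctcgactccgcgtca
Grin2c: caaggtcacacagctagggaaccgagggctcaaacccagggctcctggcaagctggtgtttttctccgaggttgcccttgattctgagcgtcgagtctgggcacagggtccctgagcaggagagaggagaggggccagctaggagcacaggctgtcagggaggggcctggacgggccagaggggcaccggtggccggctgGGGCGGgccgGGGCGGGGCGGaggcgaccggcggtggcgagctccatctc
Grin3b: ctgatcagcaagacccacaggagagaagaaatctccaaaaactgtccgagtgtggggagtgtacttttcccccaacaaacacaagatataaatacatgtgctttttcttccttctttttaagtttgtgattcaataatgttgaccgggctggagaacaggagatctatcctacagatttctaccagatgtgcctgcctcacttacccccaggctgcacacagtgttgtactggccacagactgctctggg
Grin2c held 3 GC boxes, the last of which overlap by a single base, and Grin1, Grin2d and Grin3b held none. The hexamer was found on either strand in 32.7% of the 32851 promoters of the same length. The Grin2d window, at chr7:45866682-45866931 on the minus strand, lies before its RefSeq start but inside the annotated gene (chr7:45831883-45878378). The dinucleotide CpG occurred 27 times upstream of Grin1, 15 times upstream of Grin2c, 9 times in the Grin2d window and 2 times upstream of Grin3b, against a median of 6 over all promoters. The Grin1 window thus had at least as many CpG as 92.4% of promoters, whereas for Grin3b the corresponding value was 29.0%. The letters say what these windows hold, and no binding or methylation was measured.

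Grin1, the obligatory subunit (chr2:25291181-25319187, GRCm38, minus strand), was well detected in both groups. It measured 5.88, 10.7 and 11.4 RPKM in the Dbx1 samples, a mean of 9.33 ± 3.01 (SD, n = 3). The non-Dbx1 samples had 7.52, 5.17 and 9.03 RPKM, a mean of 7.24 ± 1.95 (SD, n = 3). The ranges overlapped, since Dbx1 sample 1 lay below 2 of the non-Dbx1 samples. Over all 6 samples its mean of 8.28 RPKM lay at or above 81.2% of the 27067 genes detected in at least 1 sample, whose median was 1.09 RPKM. Grin1 shares 13.5% of its exon bases with the antisense gene Grin1os, and reads were counted without strand. A read in that overlap could be given to neither gene. Grin1os itself had 0, 14 and 0 reads in the Dbx1 samples, against 0, 1 and 6 reads in the non-Dbx1 samples. Grin1 had 667 to 1285 reads per sample.

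Among the GluN2 genes, Grin2d (chr7:45831883-45878378, minus strand), whose subunit gives slowly deactivating currents with weak magnesium block, had the highest mean RPKM. Its level was 3.37, 11.5 and 10.4 RPKM in the Dbx1 samples, against 12.5, 15.2 and 4.43 RPKM in the non-Dbx1 samples. Dbx1 sample 1 and non-Dbx1 sample 3 were low and the other 4 samples were 10.4 RPKM or more, so the spread within groups exceeded the difference between their means of 8.45 and 10.7 RPKM. Its within-group SD was 0.84 on the log2 scale, beside a median of 0.71 over the 8739 genes tested whose mean lay between 1 and 10 RPKM. Grin2d shares 9.66% of its exon bases with Gm45441, and reads there could also be given to neither gene. For Grin2b and Grin2c the overlaps with other genes cover 1.12% and 1.81%.

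Grin2b (chr6:135713233-136173511, minus strand), which encodes the GluN2B subunit typical of immature synapses, measured 3.89, 4.85 and 6.41 RPKM in the Dbx1 samples. It measured 6.99, 1.62 and 2.72 RPKM in the non-Dbx1 samples, which therefore enclosed the Dbx1 values. Grin2a (chr16:9567898-9995560, minus strand), which encodes the faster GluN2A subunit, was lower than Grin2b in each of the 6 samples. Its values were 0.839, 0.876 and 1.50 RPKM in the Dbx1 samples, against 2.84, 1.07 and 0.767 RPKM in the non-Dbx1 samples. The highest value of both genes came from non-Dbx1 sample 1, the sample with the most oligodendrocyte and red blood cell RNA.

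The ratio of Grin2b to Grin2a was 4.63, 5.54 and 4.27 in the Dbx1 samples, against 2.47, 1.51 and 3.55 in the non-Dbx1 samples. Every Dbx1 sample lay above every non-Dbx1 sample. For single genes, groups without overlap were found in 10.6% of all genes tested, and no such share was taken for ratios. Other gene lengths change the ratio by the same factor in every sample, so the order is kept by arithmetic and this adds no support. The ratio was looked at after the values had been seen and was not tested.

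Grin2c (chr11:115249169-115267243, minus strand), whose GluN2C subunit is best known from cerebellar granule cells and astrocytes, was the only member that had no read in some samples and 41 or more in the others. It was listed at 0 in Dbx1 samples 1 and 2, where a count of 3 reads corresponds to 0.0851 RPKM or less, and at 3.37 RPKM in Dbx1 sample 3. The non-Dbx1 samples had 2.75, 0.879 and 4.12 RPKM, from 97, 41 and 212 reads. Dbx1 sample 3 thus fell among the non-Dbx1 samples, and the groups overlapped. The 6 astrocyte markers summed to 17.0, 22.2 and 29.1 RPKM in the Dbx1 samples, against 27.0, 31.1 and 36.3 RPKM in the non-Dbx1 samples. The single markers differed in pattern. Gfap was above 1 RPKM only in Dbx1 sample 3 (3.96 RPKM) and Gjb6 only in non-Dbx1 sample 3 (2.32 RPKM). Aqp4 measured 1.81, 10.8 and 6.45 RPKM in the Dbx1 samples, against 0.0304, 8.76 and 16.4 RPKM in the non-Dbx1 samples. The part of astrocyte RNA in the Grin2c values was not tested.

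Grin3a (chr4:49661611-49845744, minus strand), whose GluN3A subunit is most abundant early in postnatal life, was found at levels close to those of Grin1. It measured 9.10, 10.7 and 4.93 RPKM in the Dbx1 samples, against 12.5, 6.06 and 5.88 RPKM in the non-Dbx1 samples, means of 8.23 and 8.16 RPKM. Its highest value, like those of Grin2a and Grin2b, was in non-Dbx1 sample 1. By reads it was the member with the largest total, 7193 over the 6 samples. Grin3b (chr10:79970715-79977190, plus strand), whose GluN3B subunit is best known from motor neurons, had 0, 7 and 0 reads in the Dbx1 samples, against 1, 2 and 0 reads in the non-Dbx1 samples. These counts lie at or under a floor of 3 reads, 0.0603 to 0.088 RPKM, in all but Dbx1 sample 2, and no fold is given for it. The overlap of Grin3b with Tmem259 covers 32.1% of its exon bases, and a read in the overlap could be given to neither gene.

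**Figure D1:**
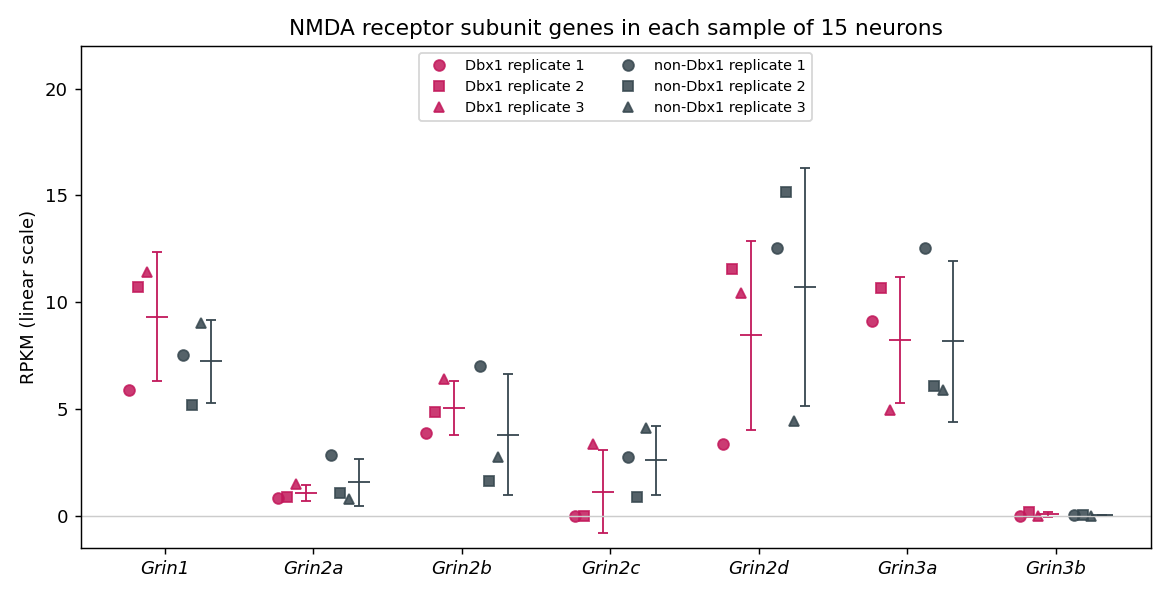
RPKM of the 7 NMDA receptor subunit genes (linear axis) in the 3 Dbx1 and 3 non-Dbx1 samples, with 1 symbol per replicate and the mean ± SD of each group beside its points. The groups overlap for every gene, Grin2c is at 0 in 2 Dbx1 samples, and Grin3b stays near 0 throughout.

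The first comparison asked whether Dbx1 and non-Dbx1 neurons differed in the RNA of any subunit. The limma test was fitted to log2(RPKM + 1) of 17614 genes, with Benjamini-Hochberg false discovery rates (FDR) over all of them. L2FC is the difference between group means on that scale, positive where Dbx1 samples were higher. No member passed an FDR of 0.1, the share over all genes being 0.00568%, which was a single gene, the non-coding D930028M14Rik (L2FC −5.75, FDR = 0.0186). None of the 7 had an unadjusted limma p under 0.05 either, against 2.73% of all genes higher in Dbx1 and 2.48% higher in non-Dbx1 samples. On the same samples and at the same FDR of 0.1, the paper's DESeq2 test of read counts called several genes. Among them were Gata2, Hif1a and Pbx3, none of which passed in the limma fit.

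The L2FC of Grin1 was 0.31 ± 0.41 (SE), with a 95% interval from −0.62 to 1.24. For Grin2b it was 0.48 ± 0.57 (SE), with an interval from −0.82 to 1.78. Grin2d had an L2FC of −0.31 and an interval from −1.62 to 1.01, and Grin2a one of −0.23 and an interval from −1.40 to 0.93. Grin3a, at 0.03, had an interval from −1.003 to 1.06. Every one of these intervals holds 0, so no difference was shown. They are also wide, that of Grin2b reaching 1.78 and that of Grin2d −1.62, so the groups were not shown to be alike either.

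The largest difference was that of Grin2c, −1.02 ± 0.73 (SE), with an interval from −2.68 to 0.65 and an FDR of 0.940. Because of the samples at 0 its size depended on the pseudocount. It was −2.80 with a pseudocount of 0.1 and −4.88 when recovered reads were fitted with limma's voom, with FDR of 0.936 and 0.870. With 1 sample left out it ran from −0.66 (without Dbx1 sample 1 or 2) to −1.72 (without Dbx1 sample 3, limma FDR = 0.825), and it was −0.70 without non-Dbx1 sample 3.

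The other differences also moved with single samples, and none passed the test. Grin1 ran from 0.11 without non-Dbx1 sample 2 to 0.58 without Dbx1 sample 1, with 0.46 without non-Dbx1 sample 3 and 0.19 and 0.15 without Dbx1 samples 2 and 3. Grin2b ran from 0.13 without non-Dbx1 sample 2 to 0.93 without non-Dbx1 sample 1. Grin2a ran from −0.46 without non-Dbx1 sample 3 to 0.10 without non-Dbx1 sample 1. Grin2d ran from −0.79 without non-Dbx1 sample 3 to 0.18 without Dbx1 sample 1, and was −0.003 without non-Dbx1 sample 2, the sample with the Cldn5 RNA. Grin3a ran from −0.17 without Dbx1 sample 2 to 0.35 without non-Dbx1 sample 1. Grin2a, Grin2d and Grin3a thus changed sign.

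**Figure D2:**
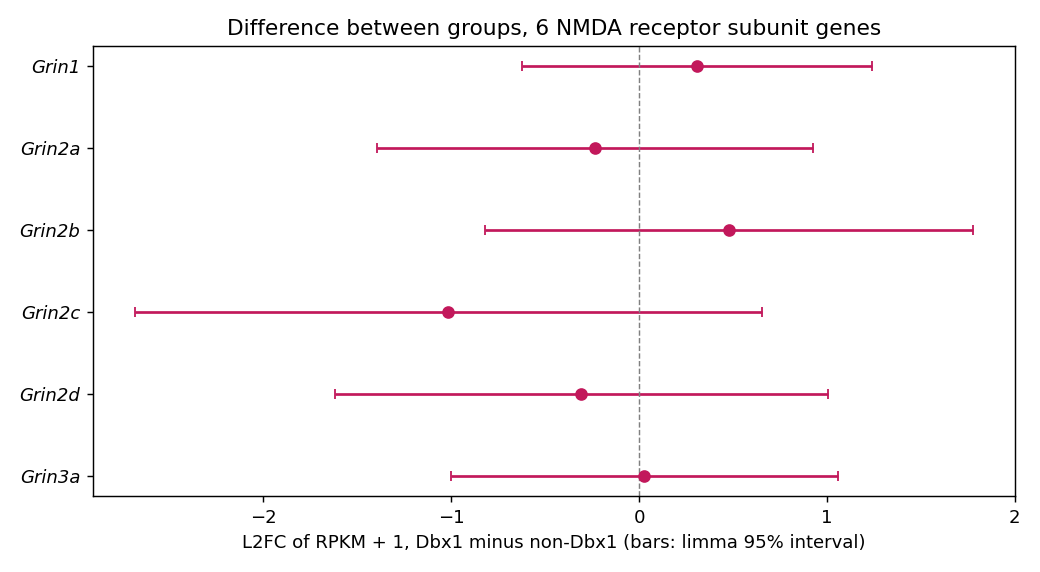
L2FC of log2(RPKM + 1) for 6 members, Dbx1 minus non-Dbx1, as points with limma's 95% interval as bars (Grin3b, near 0 reads, is not drawn). All 6 intervals cross 0, and the widest belongs to Grin2c, from −2.68 to 0.65.

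The make-up of the receptor pool was then compared by 5 shares and ratios within samples, where scaling between samples plays no part, and by the summed level of the family, which does depend on it. By deposited RPKM the GluN2 genes together exceeded Grin1 in every sample, which changed with the gene lengths used (given further on), with Grin1 at 0.726, 0.619 and 0.525 of the summed GluN2 RPKM in the Dbx1 samples, against 0.299, 0.276 and 0.750 in the non-Dbx1 samples. On the log2 scale the group means differed by 0.64 (exact two-sided permutation test, p = 0.40, adjusted p = 0.96 over 6 measures). Non-Dbx1 sample 3 lay above all Dbx1 samples and the other two non-Dbx1 samples below them.

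The share of Grin2b in the GluN2 sum was 48.0%, 28.1% and 29.5% in the Dbx1 samples, against 27.8%, 8.66% and 22.6% in the non-Dbx1 samples. The groups did not overlap on this measure, and Dbx1 sample 2 and non-Dbx1 sample 1 were 28.1% and 27.8%. Among all genes tested one by one, 10.6% had groups without overlap, and no such figure was taken for shares of a sum. The difference of 15.5 percentage points had the smallest p that 3 against 3 samples can give (exact two-sided permutation test, p = 0.10, adjusted p = 0.60), so it cannot pass 0.05 by design. It fell to 9.09 points without Dbx1 sample 1 and to 9.97 points without non-Dbx1 sample 2. The groups overlapped when merged exon lengths or the longest transcripts were used (exact permutation p = 0.20 for each) and when Grin2c was left out of the sum (exact permutation p = 0.40), but not per coding length.

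Grin2d made up 41.6%, 66.9% and 48.0% of the GluN2 sum in the Dbx1 samples, against 49.9%, 80.9% and 36.8% in the non-Dbx1 samples. It was the largest GluN2 share in 5 samples, the exception being Dbx1 sample 1, where Grin2b was larger. The share of Grin2a stayed between 5.07% and 11.3%. For neither share did the groups separate (exact two-sided permutation test, p = 0.80 for each, adjusted p = 0.96).

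The GluN3 genes, in effect Grin3a, held 39.4%, 27.9% and 12.9% of the sum of all 7 genes in the Dbx1 samples, against 27.8%, 20.3% and 21.8% in the non-Dbx1 samples. The Dbx1 samples therefore spanned all of the non-Dbx1 values (exact two-sided permutation test, p = 0.70, adjusted p = 0.96). The sixth measure, the summed level of the family, differed by −0.03 on the log2 scale (exact two-sided permutation test, p = 1, adjusted p = 1).

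**Figure D3:**
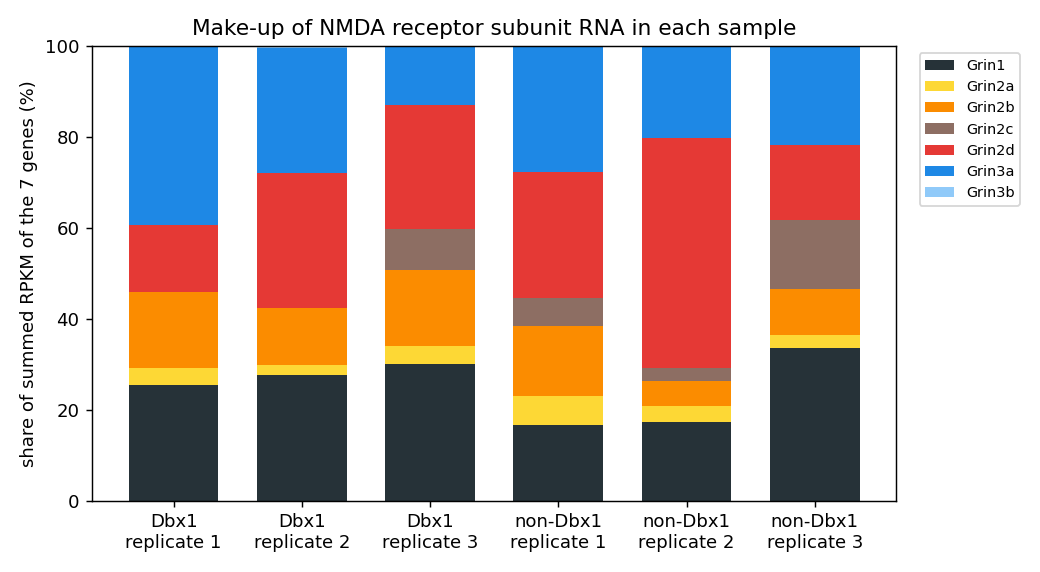
Share of each gene in the summed RPKM of the 7 NMDA receptor subunit genes (stacked to 100%), with 1 bar for each sample. Grin1, Grin2d and Grin3a fill most of every bar, and Grin2c appears in 4 of the 6 bars.

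In order of mean RPKM over the 6 samples, Grin2d (9.58 RPKM) was followed by Grin1 (8.28), Grin3a (8.19), Grin2b (4.41), Grin2c (1.85), Grin2a (1.32) and Grin3b (0.0416). The first 3 of these did not differ beyond their spread, each being above its neighbour in 3 of the 6 samples (exact sign-change tests on log2(RPKM + 1), p = 0.91 for Grin2d against Grin1 and 0.97 for Grin1 against Grin3a). Grin3a was above Grin2b in 5 samples and Grin2b above Grin2c in 5 samples (exact p = 0.0625 for each). Grin2c and Grin2a could not be ranked (exact p = 1). Grin2a was above Grin3b in all 6 samples, and its exact p of 0.03125 is the smallest that 6 samples can give. After adjustment over the 6 neighbouring pairs the lowest p was 0.125, so no neighbouring step passed 0.05. A single pair at the smallest p cannot pass after this adjustment.

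This order depended on the length by which reads were divided. The lengths behind the deposited RPKM could be recovered from the values as whole numbers, and for Grin2a, Grin2b, Grin2c and Grin2d they equalled the sum of all distinct annotated exons, overlapping exons included. For Grin2a this holds after a factor of 2, which was chosen to bring its length nearest to that sum. For Grin1, Grin3a and Grin3b the recovered lengths of 15084, 19170 and 5276 bases differed from their sums of 14548, 18449 and 5043 bases. Of 11567 annotated genes above 0 in all 6 samples, 31.3% had a recovered length equal to the sum. The annotation used here is thus not the authors' own. The exons of Grin1 merged into 9700 bases and its longest annotated transcript had 4276 bases. The factor between the recovered and the merged length ran from 1.08 for Grin2c to 1.60 for Grin3b, so the deposited RPKM lowered the members by unequal factors.

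With reads divided by merged exon length Grin2d was 1.06 times Grin1, and with the longest transcript it was 0.572 times Grin1. Grin1 then had the highest mean of the family, followed by Grin3a at 0.718 of its level. Per coding length Grin3a was 1.06 times Grin1 and Grin2b, whose longest transcript is 4446 coding bases out of 24060, rose to 0.688. Grin2a ran from 0.0765 to 0.172 and Grin2c from 0.0626 to 0.224 of Grin1 over the 4 lengths, both below Grin2b, Grin2d and Grin3a under each length, and they swapped places in the order under 2 of them.

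The length also moved the balance between Grin1 and the GluN2 genes. With the longest transcripts Grin1 was 1.24 ± 0.522 times the GluN2 sum (mean ± SD, n = 6), and with the deposited RPKM 0.533 ± 0.206 times. Grin2d was at 60.6% ± 15.1 of the GluN2 sum with the longest transcripts and at 36.2% ± 16.4 per coding length (mean ± SD, n = 6). Per coding length Grin2b was the larger, at 47.7% ± 15.4.

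**Figure D4:**
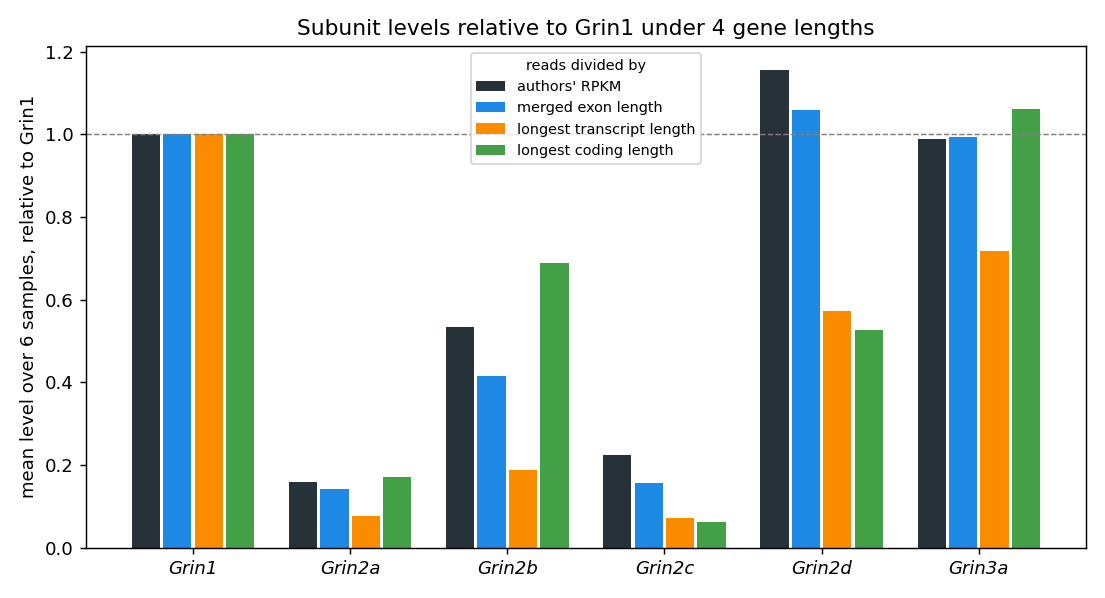
Mean level over 6 samples of Grin1, Grin2a, Grin2b, Grin2c, Grin2d and Grin3a relative to Grin1 (dashed line at 1), with reads divided by 4 different gene lengths. Grin2d falls from 1.16 with the deposited RPKM to 0.527 per coding length, while Grin2a and Grin2c stay at or under 0.224.

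NMDA receptor RNA was next set against the families of the other ionotropic glutamate receptors. AMPA receptors (Gria1 to Gria4) carry fast excitation and kainate receptors (Grik1 to Grik5) also act presynaptically. The AMPA receptor genes summed to 38.2, 67.3 and 85.5 RPKM in the Dbx1 samples, against 56.5, 41.1 and 30.8 RPKM in the non-Dbx1 samples. The kainate receptor genes summed to 32.4, 53.9 and 71.6 RPKM and to 60.4, 35.2 and 47.8 RPKM. Gria4 led the AMPA family with a mean of 24.3 RPKM, and Grik2 led the kainate family with 18.7 RPKM, both above the mean RPKM of any NMDA receptor gene.

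The NMDA receptor sum was below the AMPA sum in all 6 samples and below the kainate sum in all 6 samples. The mean log2 ratio was −0.61 ± 0.36 against AMPA and −0.56 ± 0.26 against kainate (SD, n = 6; exact two-sided sign-change test, p = 0.03125 for each, adjusted p = 0.03125), the smallest p that 6 samples can give. The sums cover 7, 4 and 5 genes, and with the mean RPKM per subunit gene in place of the sum the ratios were −1.42 and −1.04 (exact p = 0.03125 for each). The ratios compare different genes and so carry the same dependence on length. Per longest transcript the ratio was −0.49 against AMPA (exact p = 0.0625) and −0.085 against kainate (exact p = 0.53), with the NMDA sum the higher in 3 samples for kainate. Per merged exon length it was −0.80 (exact p = 0.03125) and −0.28 (exact p = 0.0625), with adjusted p = 0.0625 for both.

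The ratio to AMPA was also compared between groups. It was −0.73, −0.79 and −1.17 in the Dbx1 samples, against −0.32, −0.45 and −0.19 in the non-Dbx1 samples, so every Dbx1 sample had less NMDA relative to AMPA receptor RNA than every non-Dbx1 sample. The difference was −0.57 on the log2 scale (exact two-sided permutation test, p = 0.10, the smallest possible), and it was −0.54 per merged exon length and −0.46 per longest transcript with the same p. The groups did not overlap under any of these lengths, narrowly so per longest transcript, and with 3 samples in each the design cannot reach 0.05. Among all genes tested, 10.6% had groups without overlap, a share for single genes and not for ratios of sums. The ratio to kainate overlapped between groups and differed by −0.13 (exact two-sided permutation test, p = 0.50).

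**Figure D5:**
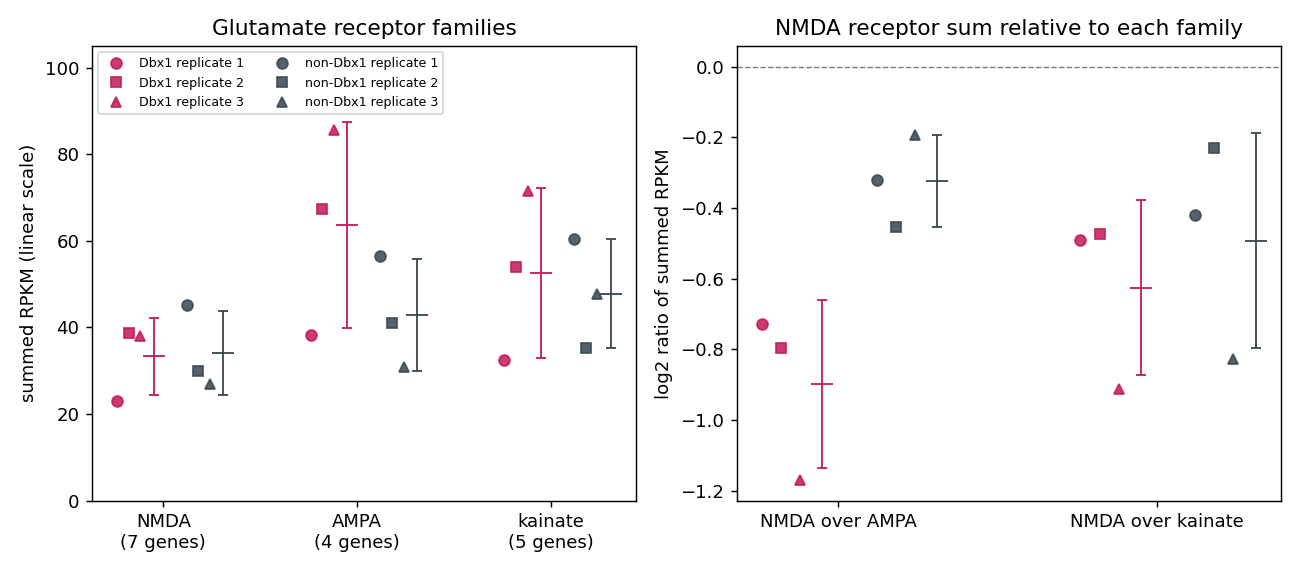
Left, summed RPKM (linear axis) of the NMDA, AMPA and kainate receptor genes in each sample, with mean ± SD per group. Right, log2 ratio of the NMDA sum to each other family, below 0 in all 6 samples, with the Dbx1 samples between −1.17 and −0.73 and the non-Dbx1 samples between −0.45 and −0.19 for AMPA.

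The genes that anchor, modify, supply and carry the receptor were examined in 4 lists of 46 genes in all, of which 45 could be tested and Dao, a D-serine degrading enzyme, could not. No partner gene passed an FDR of 0.1 and none had an unadjusted limma p under 0.05 in either direction, against the shares of all genes given above. The L2FC was above 0 for 24 partners and below 0 for 21, with a median of 0.02 beside 0.01 over all genes tested. The groups did not overlap for 5 of the 45 partners (11.1%), close to the 10.6% of all genes.

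Among the 14 scaffold genes the median L2FC was −0.09. Shank1, which links receptor complexes to the actin cytoskeleton, had the highest mean of the list (13.3 RPKM) and an L2FC of 0.02. Dlg4, which encodes PSD-95, the main anchor of the GluN2 tails, had the largest L2FC of the list, −1.04 (FDR = 0.936). It measured 0.850, 1.34 and 2.36 RPKM in the Dbx1 samples, against 5.59, 8.08 and 1.10 RPKM in the non-Dbx1 samples, where the third was within the Dbx1 range, and its L2FC was −0.61 without non-Dbx1 sample 2 and −1.66 without non-Dbx1 sample 3. Of the 5 partners without overlap, named after their values were seen, 4 were scaffolds lower in Dbx1 samples: Dlg3, Dlgap3, Dlgap4 and Homer2. The share of 10.6% over all genes covers both directions, and none is given for this direction alone. Of the 14 scaffolds, 7 had an L2FC above 0 and 7 below 0, and none had an unadjusted limma p under 0.05.

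Homer2 measured 0.524, 0.867 and 0.563 RPKM in the Dbx1 samples, against 2.41, 1.82 and 2.49 RPKM in the non-Dbx1 samples (L2FC −0.97, limma FDR = 0.912). Dlg3, which encodes SAP102, the anchor typical of immature synapses, averaged 4.57 RPKM in Dbx1 and 7.16 RPKM in non-Dbx1 samples (L2FC −0.56, limma FDR = 0.940). For Dlgap3 and Dlgap4 the L2FC was −0.44 and −0.50. The fifth, Lin7b, a trafficking partner, was at 31.8 RPKM in Dbx1 and 21.0 RPKM in non-Dbx1 samples (L2FC 0.55, limma FDR = 0.913), with an L2FC of 0.35 without Dbx1 sample 3.

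In the 14 genes that signal at the receptor the median L2FC was 0.01. Cdk5, a kinase that phosphorylates GluN2A, was the highest at 108.7 RPKM over all samples, with an L2FC of −0.22. Camk2a, the calcium-activated kinase that binds GluN2B, had the largest L2FC of the list among genes of at least 1 RPKM, −0.78 (limma FDR = 0.940). It measured 0, 0.303 and 1.01 RPKM in the Dbx1 samples, against 3.81, 1.18 and 0.251 RPKM in the non-Dbx1 samples. Its L2FC was −0.26 without non-Dbx1 sample 1 and −1.23 without non-Dbx1 sample 3.

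Of the genes for the co-agonists, Srr, the serine racemase that makes D-serine, measured 4.22, 1.95 and 3.19 RPKM in the Dbx1 samples, against 0.287, 2.39 and 1.53 RPKM in the non-Dbx1 samples. Its L2FC of 0.85 was the largest of the list and did not pass the test (limma FDR = 0.940), and it was 0.45 without non-Dbx1 sample 1. Slc1a4, a transporter of neutral amino acids including serine, was the highest of the list at 12.5 RPKM and ranged from 0.511 to 25.3 RPKM within the non-Dbx1 group.

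Among the trafficking and auxiliary genes Calm2, a calmodulin gene, was the most abundant, at 620.1 RPKM. Kif17, the motor that carries GluN2B along dendrites, had the largest L2FC of all 45 partners, −1.38 (limma FDR = 0.914). Its values were 0.430, 0 and 0.348 RPKM in the Dbx1 samples, against 6.87, 2.81 and 0.136 RPKM in the non-Dbx1 samples. Non-Dbx1 sample 3 again fell among the Dbx1 samples. Without non-Dbx1 sample 1, the sample rich in oligodendrocyte RNA, the L2FC was −0.74, and without non-Dbx1 sample 3 it was −2.14.

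For each member found in every sample, the genes with the most similar pattern over the 6 samples were taken from 11031 genes, by the root mean square (RMS) difference of log2(RPKM + 1) after centring each gene on its mean. Grin1 was nearest to Grm7, which encodes a metabotropic glutamate receptor, with an RMS difference of 0.04, and then to the potassium channel gene Kcna2, with 0.06. Its own deviations had an RMS of 0.37. Grm7 measured 8.27, 13.8 and 14.8 RPKM in the Dbx1 samples, against 10.5, 7.03 and 11.7 RPKM in the non-Dbx1 samples, the same order of samples as Grin1.

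Grin2b was nearest to Elovl6, a fatty acid elongase gene (0.11), and to the histone methyltransferase gene Kmt5a (0.12). Grin2d was nearest to the plexin gene Plxna3 (0.18) and to RP23-361B11.3 (0.20). Grin2a was nearest to the dynein light chain gene Dynll2 and to the ribosomal protein gene Rpsa (0.11 for both). Grin3a was nearest to Rack1 (0.10) and Gtpbp3 (0.11). None of the 10 nearest genes was another NMDA receptor subunit, and each was the best of 11031 over only 6 samples, which is a description of these samples.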

How the data were processed

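RNA of 15 preBötC neurons per sample was measured in 6 samples. Per the methods, the authors made amplified complementary DNA and aligned single-end reads to mm10 with Tophat2. Reads were counted by gene name without strand in HTSeq-count. The deposited RPKM values were based on exon lengths from Ensembl. No scaling of them between samples beyond that by library reads is described. The annotation release and the versions of the aligner and counter are not given in the sources used here. Reads and lengths were recovered as the lowest integers that return each deposited value. These were then multiplied by the whole factor that brought the length nearest to the summed annotated exons (2 for Grin2a). A floor of 3 reads covers counting error only, since amplified reads are not independent molecules. Genes were located in GENCODE vM21 (GRCm38) by name, with 95.3% matched.

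Because RPKM are not counts, log2(RPKM + 1) of the 17614 genes above 0 in at least 3 samples was tested with limma 3.58.1 (eBayes with trend, two-sided) in R 4.3.3, at an FDR of 0.1. Single measures used exact permutations of samples (smallest two-sided p 0.10 for 3 against 3) or exact sign changes within samples. The fit was tested on simulated data. Other steps used Python 3.11.15, numpy 2.4.6, pandas 2.3.3 and matplotlib 3.10.9.

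Members and lists were chosen with earlier results of these data known. Named partners were, per list, the highest mean, every limma p under 0.05 and the largest L2FC at a mean of at least 1 RPKM. Further genes were the highest of each receptor family, the 2 nearest patterns of each member, and genes overlapping a member. Alternatives were a pseudocount of 0.1, other filters on low values (any sample above 0, or 3 samples at 1 RPKM or more), size factors, quantile normalization, limma without trend, voom on recovered reads (at least 10 in at least 3 samples), the replicate number as a block, other gene lengths, each group alone, the mean per subunit gene and each sample left out. Samples of the same number did not vary together (correlations of deviations −0.13, 0.02 and −0.06). One list of marker genes is not reported here.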

Additional observations from a re-analysis of the deposited data

How the results depend on the processing

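Depth limited Grin3b, with 0 to 7 reads a sample, and the 2 samples where Grin2c had no read. No member passed an FDR of 0.1 under any limma setting tried. Of 90 alternative L2FC of the 6 members above the floor, 84 kept their sign. The other filters, limma without the trend and the replicate block cannot change an L2FC, so the sign was fixed in those settings. The 6 that changed sign all arose when a sample was left out. Grin2a then ranged from −0.46 to 0.10, Grin2d from −0.79 to 0.18, and Grin3a from −0.17 to 0.35. No partner gene passed either. Over all genes, the 1 call became 0 with a pseudocount of 0.1, with genes above 0 in at least 1 sample, with the replicate block and with voom, and 3 without the trend. It was 0 to 1 when a sample was left out: D930028M14Rik passed only without Dbx1 sample 1, and another gene, Gm1821, higher in Dbx1, only without non-Dbx1 sample 2. The replicate block, for numbers that share only a name, gave 440 genes higher in Dbx1 and 379 higher in non-Dbx1 at an unadjusted p under 0.05, against 480 and 436, and changed no call on a member. Within blocks the Grin2b share had an exact sign-change p of 0.25, the smallest that 3 pairs can give.

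For composition, leaving out a sample gave differences from −1.80 to 1.41 percentage points for Grin2a, −13.3 to 8.82 for Grin2d, −2.89 to 10.4 for the GluN3 share, and −0.18 to 0.21 for the log2 family sum. That sum also changed sign with recovered reads (0.12), without Grin2c and Grin3b (0.044) and per longest transcript (0.047). The Grin2b share (9.09 to 19.6 percentage points) and the log2 ratio of Grin1 to GluN2 (0.31 to 1.11) kept their sign under every alternative run. The replicate block cannot change either difference.

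In the order of levels no neighbouring pair passed an adjusted p of 0.05 under any alternative. For each group alone and with a sample left out none could, as the smallest exact sign-change p was 0.25 and 0.0625. With all 6 samples a single pair at the smallest p cannot pass after adjustment, so these runs decide little. Grin2d against Grin1 turned to −0.22 in the Dbx1 samples alone, −0.036 per merged exon length, −0.88 per longest transcript and −1.01 per coding length, with −0.18 to 0.28 when a sample was left out. Grin1 against Grin3a turned to −0.11 in the non-Dbx1 samples alone and −0.062 per coding length, with −0.17 to 0.17 when a sample was left out. Grin2c against Grin2a turned to −0.57 with a pseudocount of 0.1, −0.33 in the Dbx1 samples alone, −0.15 per merged exon length, −0.32 per longest transcript and −1.46 per coding length, with −0.23 to 0.26 when a sample was left out.

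The log2 ratio of NMDA to AMPA was −0.90 in the Dbx1 samples alone and −0.32 in the non-Dbx1 samples alone, and that to kainate −0.63 and −0.49 (exact p = 0.25, the smallest that 3 samples can give). With a sample left out they ran from −0.69 to −0.50 and from −0.62 to −0.49 (exact p = 0.0625, the smallest for 5 samples). Per merged exon length they were −0.80 and −0.28, and per longest transcript −0.49 and −0.085, with adjusted p above 0.05. These lengths, and those for composition and for levels per transcript or coding length, were chosen after seeing the data.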
